A study of Mus musculus with 6 samples.

Results

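The genes described here encode ubiquitin ligases of the RING, TRIM and cullin-adaptor families. They were chosen by their symbols among the protein-coding genes of the authors' deposited tables: TRIM, RNF, FBXO, FBXL, FBXW, KLHL, KLHDC, KBTBD, CUL and ASB genes with a number in the name. The rule found 215 of 13970 listed genes, of which 209 were listed in both extractions with a log2 ratio, 5 in the optimized extraction alone and 1 in the standard extraction alone. The RNA was that of ribosomes and other heavy particles in primary astrocytes, glial cells taken from newborn mice (C57BL/6JOlaHsd, males and females pooled) and left untreated after thawing and plating. For the 3 libraries of the optimized extraction (batches A, B and C) cells were lysed directly on the plate with the detergent DDM at higher salt. For the 3 libraries of the standard extraction (batches A, B and C) cells were scraped in the presence of cycloheximide, pelleted and frozen. They were then lysed with Triton X-100 and sodium deoxycholate at lower salt. The handling before lysis (scraping with cycloheximide, pelleting and freezing), the detergent and the salt therefore cannot be told apart. Each lysate was pelleted through sucrose and the RNA of the pellet was sequenced. The contrast is between the mRNAs found in pellets after either lysis. The values are log2 ratios of optimized over standard extraction, 1 for each gene and without an error, so no difference was tested across libraries and all that follows is description. Values for each library were not analysed here, the depth is unknown, and the expression level of a gene cannot be read from its ratio.

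Ubiquitin ligases choose the proteins that a cell marks with ubiquitin, mostly for destruction by the proteasome. RING ligases hold the ubiquitin-loaded enzyme and the substrate next to each other. Many RNF proteins and most TRIM proteins do this with a RING finger in their own chain, and many RNF proteins are anchored in the membranes of the endoplasmic reticulum (ER), endosomes or mitochondria. Cullin-RING ligases are assembled from parts: a cullin scaffold carries a small RING subunit at one end and, through an adaptor, an exchangeable substrate receptor at the other. F-box proteins (FBXO, FBXL, FBXW) are receptors of CUL1, the BTB-Kelch proteins (KLHL, KBTBD) of CUL3, several KLHDC proteins of CUL2 and ASB proteins mainly of CUL5. Most mRNAs for secreted proteins, and many but not all for membrane proteins, are translated by ribosomes that become bound to the ER. An mRNA for a soluble protein is mostly translated by free ribosomes. Which of the membrane-anchored RNF mRNAs are translated at the ER was not examined.

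All 8 astrocyte markers looked up (among them Gfap, Aqp4, Slc1a3 and Aldh1l1) were listed in both extractions. Of 4 markers each, 2 were shared for neurons, 1 for microglia and 2 for oligodendrocytes, and the other markers looked up gave no value here. Every one of the 209 shared ligase genes had a ratio above 0, and so had all but 41 of the 12411 shared protein-coding genes outside these families. The ligases are therefore set against the median log2 ratio of the 13278 genes shared by both extractions, 1.09, called the overall median here, and against that of the 12620 protein-coding ones, 1.08. In bulk pellets a change in RNA per cell and a change in the number of cells of a type cannot be told apart.

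The feature that separates membrane-anchored from soluble RNF proteins can be seen in the coding sequence. A stretch that crosses a membrane is built from hydrophobic residues such as leucine, isoleucine, valine and phenylalanine, whose codons all have T as the middle base. The most hydrophobic stretch of 19 codons is shown 5′ to 3′ on the coding strand for 5 membrane-anchored RNF genes, from the lowest ratio of that group to the highest, and for 2 soluble ones with high ratios. Capitals mark codons with T in the middle. The sequences are from GENCODE release M21 on build mm10, and each stretch lies within 1 exon. The stretches are at chrX:139642423-139642479 (plus strand) in Rnf128, chr11:50071314-50071370 (plus) in Rnf130, chr1:105284270-105284326 (minus) in Rnf152, chr17:34601572-34601628 (minus) in Rnf5, chr9:44112215-44112271 (minus) in Rnf26, chr4:109454365-109454421 (minus) in Rnf11 and chr10:128435448-128435504 (plus) in Rnf41.
Rnf128: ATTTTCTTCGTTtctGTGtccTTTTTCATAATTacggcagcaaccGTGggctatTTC
Rnf130: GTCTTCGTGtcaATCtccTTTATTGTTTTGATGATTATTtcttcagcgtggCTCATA
Rnf152: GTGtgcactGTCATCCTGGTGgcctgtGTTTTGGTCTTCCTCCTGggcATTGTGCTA
Rnf5: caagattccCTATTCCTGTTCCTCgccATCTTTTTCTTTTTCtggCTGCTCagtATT
Rnf26: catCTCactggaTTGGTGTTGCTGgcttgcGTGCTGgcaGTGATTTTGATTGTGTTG
Rnf11: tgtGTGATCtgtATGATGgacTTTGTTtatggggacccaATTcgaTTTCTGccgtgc
Rnf41: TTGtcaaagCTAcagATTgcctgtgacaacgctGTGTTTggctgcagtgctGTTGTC

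Of the 19 codons, 11 had T in the middle in Rnf128, 13 in Rnf130, 14 in Rnf152, 13 in Rnf5 and 13 in Rnf26, against 9 in Rnf11 and 7 in Rnf41. On the Kyte-Doolittle scale of hydrophobicity the stretches of the membrane-anchored proteins averaged 2.05 (Rnf128), 2.52 (Rnf130), 3.25 (Rnf152), 1.95 (Rnf5) and 2.85 (Rnf26), against 1.14 in Rnf11 and 1.13 in Rnf41. In Rnf5 the stretch is codons 162 to 180, the last of the protein, a tail anchor. In Rnf128 it is codons 208 to 226 of 428, behind the part that faces the lumen. A stretch averaging at least 1.6 was found in 24 of the 25 membrane-anchored and in 4 of the 38 soluble RNF proteins, and one averaging at least 2 in 23 and 0. The spacing of cysteines and histidines typical of a RING finger was found in 59 of 63 RNF, 31 of 40 TRIM and 1 of 8 cullin proteins, and in 0 of the receptor families.

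As a whole the ligase genes lay slightly above the other genes and closer together. Their median log2 ratio was 1.12 (quartiles 1.01 and 1.26), or 2.18-fold, against a median of 1.08 (quartiles 0.90 and 1.25) for the protein-coding genes other than the ligases. A ratio of 2-fold or more was found for 159 of 209 ligase genes (76.1%), against 63.0% of all shared genes and 62.4% of the shared protein-coding genes. Above the overall median lay 120 ligase genes (57.4%), against 49.0% of the shared protein-coding genes. The ligase genes spanned 0.10 to 1.83, and 197 of them (94.3%) were within 0.5 of the overall median on the log2 scale. Among all shared genes that share was 89.3%, and among the shared protein-coding genes 90.9%. Of the other ligases, 7 lay at least 0.5 above the overall median and 5 at least 0.5 below it.

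**Figure D1:**
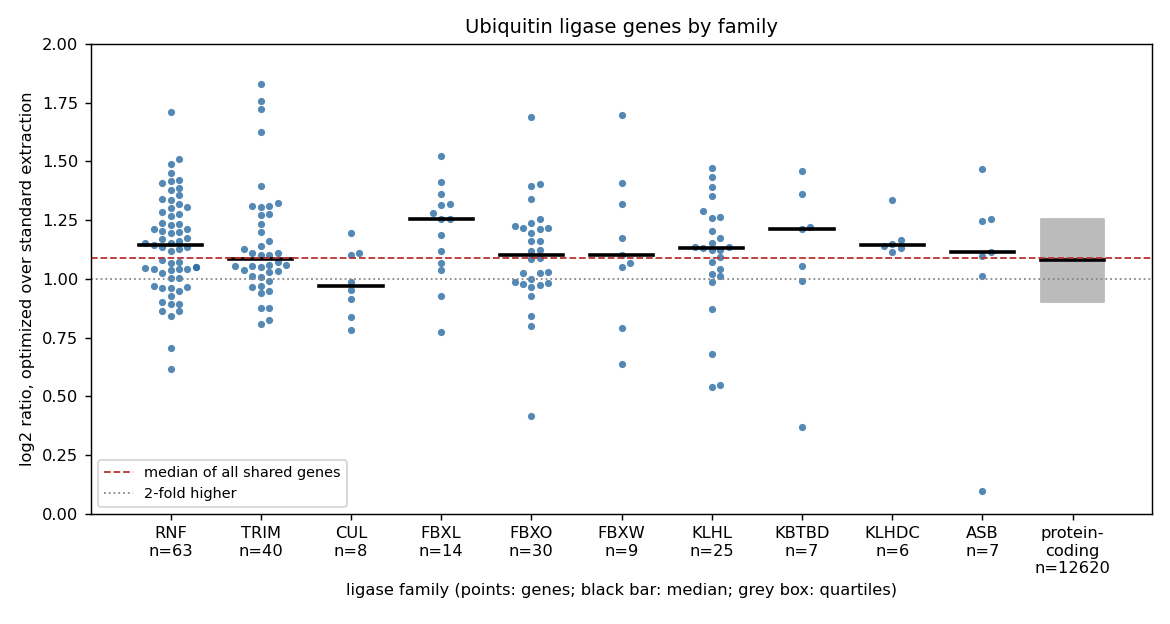
Log2 ratio of optimized over standard extraction for the 209 shared ligase genes by family (points, genes; black bars, medians), with the quartiles of the 12620 shared protein-coding genes as a grey box, the overall median as a dashed line and a 2-fold higher value as a dotted line. The cullins have the lowest median, 0.97, the other families lie between 1.09 and 1.26, and single genes such as Asb4 and Kbtbd6 fall far below their family.

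RNF genes were the largest family. Those of soluble proteins lay above the protein-coding median, and those of membrane-anchored proteins lay near it. Over its 63 shared genes the median was 1.14, with quartiles of 1.01 and 1.28. The groups were assigned by hand from general knowledge of the proteins, least surely for Rnf180 and Rnf217. Soluble here means every RNF gene not assigned as membrane-anchored, and attachment to membranes through lipids was not examined. The 25 genes assigned as membrane-anchored had a median of 1.05 (quartiles 0.93 and 1.15), and the 38 others a median of 1.20 (quartiles 1.06 and 1.33), a difference of -0.16. Of the membrane group 10 (40%) lay above the overall median and 16 (64%) were at least 2-fold higher, close to the 62.4% of all shared protein-coding genes. Of the soluble group 26 (68.4%) lay above the overall median and 33 (86.8%) were at least 2-fold higher. The groups overlapped broadly: 5 of the 25 membrane genes lay above the median of the soluble group. At the ends they did not mix evenly, since 8 of the 10 lowest RNF genes were membrane-anchored, and 1 of the 10 highest, Rnf26. Among the 38 soluble genes, 8 lay above Rnf26, the highest membrane gene.

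Proteins of the protease-associated type, which have a signal peptide, a domain in the lumen or outside the cell and a RING finger in the cytosol, were the lowest of the membrane group. Their 7 genes centred on 0.93, with 1 above the overall median, against 1.08 for the 18 other membrane-anchored RNF genes, of which 9 lay above it. Rnf128 (chromosome X, 139563316 to 139673145), also called GRAIL and known from T cell anergy, had the lowest ratio of all RNF genes in the authors' deposited table, 0.62. The authors' deposited table had Rnf130 at 0.84, Rnf215 at 0.89, Rnf13, a ligase of endosomes and lysosomes, at 0.93, and Rnf149 at 1.02. Rnf150 was at 1.07, and the lysosomal ligase Rnf167, the 1 gene above the overall median, at 1.15 in the authors' deposited table.

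Other membrane ligases ran from low to high. Low in the authors' deposited table were Rnf24 (0.86), Rnf121 (0.89), the lysosomal Rnf152 (0.90), Rnf103 (0.95) and Rnf5 (0.96), a ligase of ER-associated degradation. Rnf185, the close relative of Rnf5 with a like tail anchor, had 1.21 in the authors' deposited table. Next to the group's median stood Rnf122 (1.04), Rnf145 (1.04), Rnf182 (1.05) and Rnf144a (1.05), again as in the authors' deposited table. ER proteins with several membrane spans spread widely: the sterol-linked ligases Rnf139 and Rnf145 had 1.13 and 1.04, Rnf170, which acts on the inositol trisphosphate receptor, had 1.12, and Rnf26, which tethers endosomes near the nucleus, had 1.38 in the authors' deposited table. Ligases of the RING-between-RING type, which take the ubiquitin onto themselves before passing it on, lay above the overall median in 4 of 5 membrane-anchored and 1 of 3 soluble cases. Among the membrane-anchored ones the authors' deposited table had Rnf19a at 1.34, Rnf19b at 1.27, Rnf144b at 1.16 and Rnf217 at 1.13, against Rnf144a at 1.05. Rnf180 was at 1.32 in the authors' deposited table; no hydrophobic stretch was found in its representative protein.

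**Figure D2:**
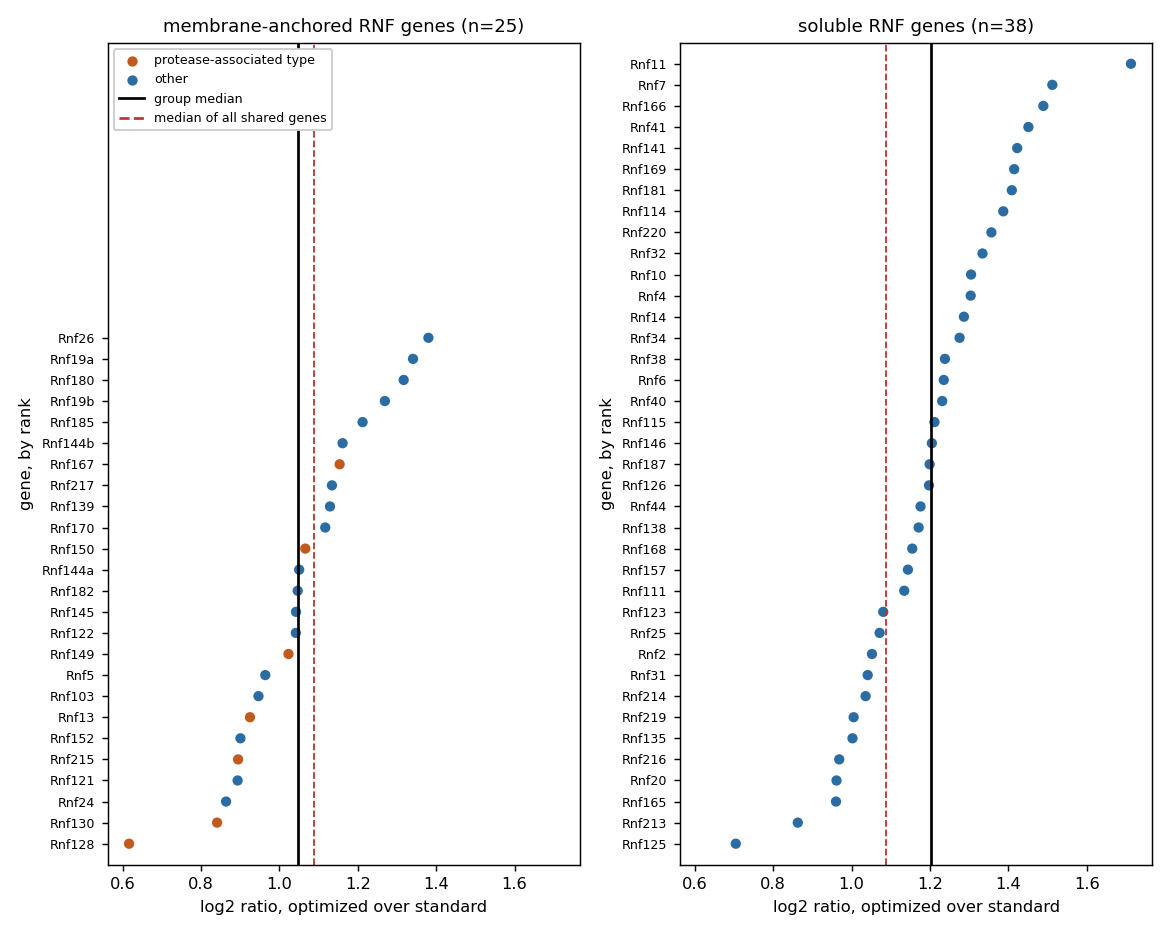
Log2 ratio of optimized over standard extraction for each of the 25 membrane-anchored RNF genes (left; orange, protease-associated type; blue, other) and the 38 soluble RNF genes (right), ranked within each panel, with the group median as a solid line and the overall median as a dashed line. The membrane genes end at 1.38 (Rnf26), and 8 soluble genes lie beyond that.

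The soluble RNF genes ranged from 0.70 to 1.71. Highest in the authors' deposited table was Rnf11 (chromosome 4, 109451098 to 109484728), a protein of 154 residues that works with the A20 complex and with HECT ligases, at 1.71. Next in the authors' deposited table came Rnf7, the RING subunit of CUL5 ligases (113 residues), at 1.51 and Rnf166 (237 residues) at 1.49. High as well (chosen after their values were seen) stood Rnf41, a regulator of ErbB3 and of parkin (1.45), Rnf141 (1.42), Rnf169 (1.41), Rnf181 (1.41) and Rnf114 (1.39) in the authors' deposited table. Lowest of the soluble genes was Rnf125 (233 residues) at 0.70, then Rnf213, a giant protein of 5152 residues linked to moyamoya disease, at 0.86 and Rnf165 at 0.96 in the authors' deposited table (Rnf213 and Rnf165 were chosen after their values were seen). Rnf125 marks the RNA sensor RIG-I for degradation, and Rnf135, which activates the same sensor, stood at 1.00 in the authors' deposited table (chosen after its value was seen).

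Nuclear RNF ligases, also chosen after their values were seen, lay on both sides of the median. Rnf20 and Rnf40, which act as 1 complex on histone H2B, had 0.96 and 1.23 in the authors' deposited table. The Polycomb ligase Rnf2 was at 1.05, the SUMO-targeted ligases Rnf4 and Rnf111 at 1.30 and 1.13, and the DNA damage ligase Rnf168 and its relative Rnf169 at 1.15 and 1.41 in the authors' deposited table. Rnf8, which acts before Rnf168 at DNA breaks, was listed for the optimized extraction alone and has no ratio.

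TRIM genes had a median at that of all genes, with a small group far above it. Over the 40 shared TRIM genes the median was 1.09, with quartiles of 1.01 and 1.27, and 20 lay above the overall median. The lowest was 0.81, so the family had no low tail, and the 4 highest stood apart from the next gene, Trim8 at 1.40 in the authors' deposited table. Trim66 (chromosome 7, 109449006 to 109508134) had 1.83, the highest ratio among the 209 genes chosen by symbol in the authors' deposited table. Trim39 (chromosome 17, 36258873 to 36272247), a regulator of the anaphase-promoting complex, had 1.76, Trim7, which binds glycogenin, had 1.72 and Trim6 had 1.63 in the authors' deposited table (Trim6 and Trim8 were chosen after their values were seen). At the low end stood Trim12c (0.81), Trim34b (0.82) and Trim23, which also holds a GTPase domain (0.88), in the authors' deposited table. Trim13 and Trim59, which have a membrane anchor at the C-terminus, were at 0.94 and 1.05 in the authors' deposited table, both below the overall median (chosen after their values were seen).

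Sorted by known role, after the values were seen, some TRIM types could be set side by side. The chromatin-bound TIF1 type has 4 members, of which Trim28, the co-repressor of KRAB zinc finger proteins, was at 0.88, Trim24 at 0.99, Trim33 at 1.01 and Trim66 at 1.83 in the authors' deposited table, so the highest gene of the family belongs to a type whose other members lay below the median. Of the genes known from antiviral defence, Trim21, an antibody receptor of the cytosol, was at 1.04, Trim25, which activates RIG-I, at 1.07 and Trim56 at 1.27 in the authors' deposited table. Of the microtubule-binding type, Trim9 was at 1.05, Trim46, which bundles microtubules in axons, at 1.23 and Trim36 at 1.31 in the authors' deposited table.

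A cluster of 8 shared TRIM genes within chromosome 7 from 104218793 to 104507849 held both Trim6, near the top of the family, and the lowest member, Trim12c. Several of its members are near copies of each other, and the counting of reads that match several copies was not given in the sources used here. Trim12a (1.16) and Trim12c (0.81), Trim34a (1.06) and Trim34b (0.82), and Trim30a (1.11) and Trim30d (1.03) of the authors' deposited table are therefore uncertain as separate values. Trim5 was at 0.95 in the authors' deposited table. The genes of the cluster were set out after their values were seen.

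Among the parts of cullin-RING ligases the scaffolds lay low and the small RING subunits high. The 8 cullin genes had a median of 0.97, with 3 at least 2-fold higher and 3 above the overall median. Their median lay -0.11 from that of the protein-coding genes, and -0.06 when genes were compared within deciles of coding length. In the authors' deposited table the order was Cul4a 1.20, Cul3 1.11, Cul1 1.10, Cul5 0.98, Cul7 0.95, Cul9 0.91, Cul2 0.84 and Cul4b 0.78. No error is known for any of them, so whether neighbours in this order differ cannot be said. The close relatives Cul4a (chromosome 8, 13105621 to 13147940) and Cul4b (chromosome X, 38533274 to 38576196), which both work with the adaptor Ddb1, differed by 0.41. Cul9, with 2530 residues the longest cullin, was the 1 cullin whose protein matched the spacing of cysteines and histidines of a RING finger, and it is known to carry a RING-between-RING domain. Rbx1, the RING subunit of most cullins, was at 1.64 and Rnf7 at 1.51 in the authors' deposited table. The adaptors Eloc (1.30), Elob (1.17) and Skp1a (1.16) lay above the overall median and Ddb1 (1.09) just below it in the authors' deposited table.

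The NEDD8 system, which switches cullins on, lay mostly high, and genes that exchange or hold back the ligases lay low. Of 10 genes for NEDD8, its enzymes and the co-ligases of the DCN1 type, 8 lay above the overall median, with a median of 1.32. The authors' deposited table had Ube2f, the NEDD8 enzyme that pairs with Rnf7, at 1.58, Nedd8 at 1.47 and Ube2m, which pairs with Rbx1, at 1.38, against 1.00 for Nae1, a subunit of the activating enzyme. Among these parts, the adaptors, Nedd8, Ube2m, Nae1 and Cand1 were chosen after their values were seen. Cand1 and Cand2, which exchange receptors, and the inhibitor Glmn were at 0.99, 0.89 and 0.82 in the authors' deposited table. The COP9 signalosome, which removes NEDD8, centred on 1.12, with 7 of 10 genes above the overall median. Its extremes were Cops9, a peptide of 57 residues, at 1.64 and Cops8 at 1.29, against Cops3 at 1.04 and Cops6 at 0.97 in the authors' deposited table.

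**Figure D3:**
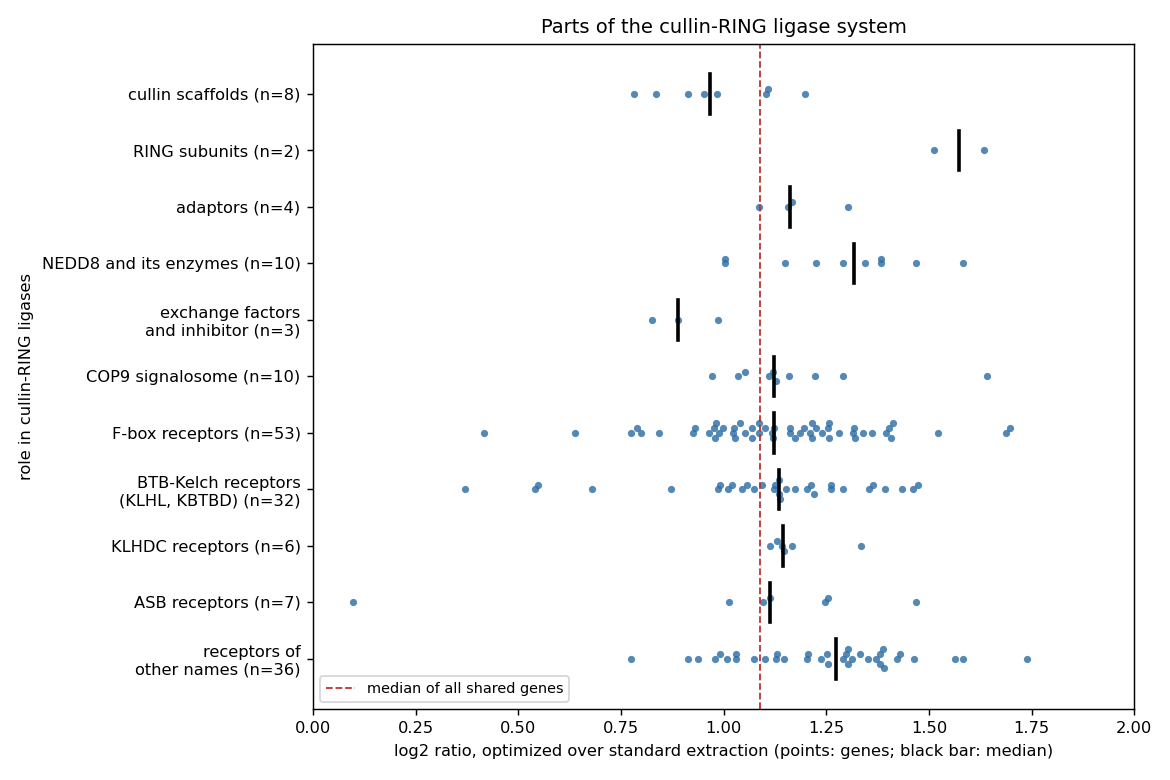
Log2 ratio of optimized over standard extraction for genes of cullin-RING ligases by role (points, genes; black bars, medians; dashed line, median of all shared genes). The 8 cullin scaffolds have a median of 0.97, the lower of both RING subunits is at 1.51, and the receptor groups have medians from 1.11 (ASB) to 1.27 (receptors of other names).

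F-box receptors of CUL1 had a median of 1.12 over 53 shared genes, with 30 above the overall median. FBXL genes, whose proteins bind substrates through leucine-rich repeats, were the highest family, with a median of 1.26 over 14 genes and 10 above. Fbxl14, which acts on Snail proteins, was at 1.52, the iron sensor Fbxl5 at 1.41 and Fbxl18 at 1.36 in the authors' deposited table. Low were Fbxl17 (0.77), which controls the pairing of BTB domains, the mitochondrial Fbxl4 (0.93) and Fbxl16 (1.04) in the authors' deposited table.

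FBXO genes had a median of 1.10 over 30 genes and split evenly, with 15 above the overall median. The authors' deposited table had Fbxo48 at 1.69, the synaptic ligase Fbxo45 at 1.40 and Fbxo9 at 1.40, against Fbxo47 at 0.42, Fbxo4 at 0.80 and Fbxo16 at 0.84. Fbxo2, Fbxo6 and Fbxo44, which lie side by side on chromosome 4 (148145716 to 148166424), were at 0.98, 1.02 and 1.12 in the authors' deposited table. Fbxo7, linked to parkinsonism and mitophagy, was at 1.03 in the authors' deposited table, and these last 4 genes were chosen after their values were seen. FBXW genes, with substrate-binding WD repeats, had a median of 1.10 over 9 genes. Fbxw2 (chromosome 2, 34804514 to 34826311) was at 1.70, Fbxw5 at 1.41 and Fbxw9 at 1.32, against Fbxw11 at 1.05, Fbxw4 at 0.79 and Fbxw10 at 0.64 in the authors' deposited table. Fbxw10 overlaps Trim16 (1.01 in the authors' deposited table) on the same strand, so their reads may not have been told apart. The tumour suppressor Fbxw7 was at 1.17 in the authors' deposited table (chosen after its value was seen), and its representative protein was the 1 member outside the RNF and TRIM families with a stretch averaging at least 2 on the hydrophobicity scale.

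BTB-Kelch receptors of CUL3 centred close to the ligases as a whole and included some of their lowest ratios. The 25 KLHL genes centred on 1.13, with 16 above the overall median, and the 7 KBTBD genes on 1.21, with 4 above (their mean was 1.10). The authors' deposited table had Klhl10, known from spermatids, at 1.47, the actin-binding Klhl2 at 1.43 and Klhl5 at 1.39. Lowest in the authors' deposited table were Klhl3 (0.54), Klhl4 (0.55) and Klhl13 (0.68). Some close relatives stood at opposite ends of the KLHL genes. Klhl2 and Klhl3, which both target WNK kinases, differed by 0.89, and Klhl5 and Klhl4 by 0.85. Some pairs in other families differed little, such as Trim2 and Trim3 (-0.01) or Rnf19a and Rnf19b (0.07). Klhl9, which works with Klhl13 in mitosis, was at 1.02 in the authors' deposited table, a difference of 0.34 between partners. Among KBTBD genes Kbtbd8, a regulator of neural crest formation, was at 1.46, Kbtbd11 at 1.36 and Kbtbd2, which acts on a subunit of PI3 kinase, at 1.22 in the authors' deposited table. Kbtbd6 (chromosome 14, 79451835 to 79454818) had 0.37 and its partner Kbtbd7 had 0.99 in the authors' deposited table, a difference of 0.62. Kbtbd4 was at 1.06 in the authors' deposited table. The pairs of relatives were chosen after their values were seen, and without an error none of these differences was tested.

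KLHDC and ASB receptors were few. All 6 KLHDC genes lay above the overall median, within a narrow range: Klhdc3 at 1.34, Klhdc1 at 1.17, Klhdc2 at 1.15, Klhdc10 at 1.14, Klhdc4 at 1.13 and Klhdc9 at 1.11 in the authors' deposited table. Klhdc2, Klhdc3 and Klhdc10 recognise C-terminal degrons with CUL2. The 7 ASB genes centred on 1.11, with 5 above. Asb1 was at 1.47, Asb13 and Asb8 at 1.25 each, and Asb6 and Asb7 at 1.11 and 1.10, against Asb3 at 1.01 in the authors' deposited table (Asb6 was chosen after its value was seen). Asb4 (chromosome 6, 5383386 to 5433022) was at 0.10 in the authors' deposited table, the lowest of the 209 genes. Only 0.595% of all shared genes had a lower ratio.

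Ligase genes whose symbols do not meet the rule gave the frame. Of 36 shared cullin receptors with other names 27 (75%) lay above the overall median, with a median of 1.27. Among them the authors' deposited table had Socs3, an inhibitor of cytokine signalling, at 1.74 and Spsb4 at 1.58, against Ipp at 0.91 and Spsb2 at 0.78. The 41 soluble RING ligases with other names had a median of 1.19 with 29 above, from Mdm4 (1.86) and Dtx3 (1.49) to Uhrf1 (0.93) and Bard1 (0.90) in the authors' deposited table. The 12 membrane RING ligases with other names had a median of 1.16 with 8 above, close to the 1.19 of the soluble ones. Among RNF genes the medians lay further apart, 1.05 for the 25 membrane-anchored and 1.20 for the 38 soluble genes. None of these differences was tested. Of the membrane ligases with other names, the ER ligases March6 and Syvn1 were at 0.80 and 0.75 in the authors' deposited table. March2 and March8, which act at endosomes and the cell surface, were at 1.69 and 1.46 in the authors' deposited table. The 26 HECT ligases, which carry ubiquitin on a catalytic cysteine and have a median length of 1026 residues, had a median of 1.06 with 11 above. Their extremes in the authors' deposited table were Hecw2 (1.43) and Ube3b (1.38) against Hectd4 (0.72) and Hecw1 (0.32).

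Protein length was only weakly related to the ratio. Over the 209 ligase genes, Pearson's r between protein length and log2 ratio was -0.13 and Spearman's rho -0.13, and over 12604 shared protein-coding genes with a protein length they were -0.13 and -0.20. These are correlations across genes, which share the same 6 libraries and are not independent replicates. The 70 shortest ligases (113 to 428 residues) had a median ratio of 1.15 with 43 above the overall median, and the 70 longest (607 to 5152 residues) a median of 1.11 with 36 above. TRIM genes did not follow this, with a Spearman's rho of 0.10 over 40 genes. Length moved with role as well: the membrane RNF proteins had a median length of 381 residues and the soluble ones of 424.5. Compared within deciles of coding length, the difference in ratio between these groups was -0.16, the same as without that comparison. What causes the difference was not tested. The median cullin had 815.5 residues. Coding GC content had a Spearman's rho of 0.19 with the ratio over the 209 ligase genes and of 0.39 over the 40 TRIM genes, against 0.07 over the 12604 protein-coding genes.

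**Figure D4:**
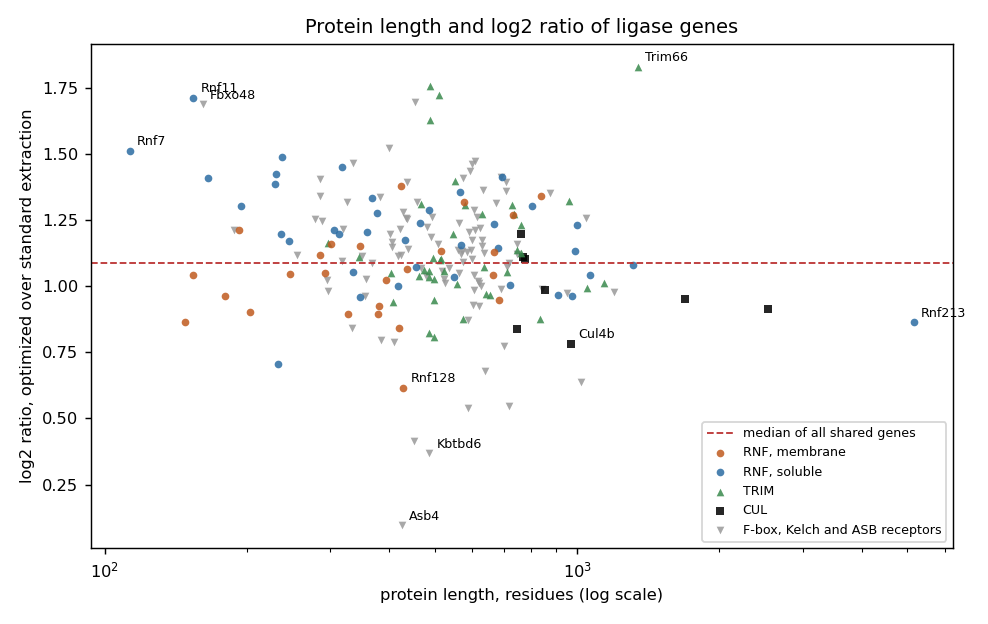
Protein length in residues (log scale) against log2 ratio of optimized over standard extraction for the 209 shared ligase genes, with membrane-anchored and soluble RNF, TRIM, CUL and receptor genes marked apart and the overall median as a dashed line. Among proteins of up to 428 residues Rnf11 and Fbxo48 lie highest, Trim66 is a long protein with the highest ratio, and Asb4 and Kbtbd6 lie lowest.

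Ligase genes were listed for 1 extraction alone about as rarely as protein-coding genes in general. The optimized-only genes held 5 ligases (2.33% of the 215), against 2.01% of all protein-coding genes listed, and the standard-only genes held 1 (0.465%), against 0.510%. Those of the optimized extraction were Rnf8, Trim14, an antiviral adaptor that lacks a RING finger, Trim17, Fbxl8 and Klhl34. The neuronal ligase Trim67 was listed for the standard extraction alone. These tables hold no measured value, and what decided a listing was not given in the sources used here.

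Another annotated gene overlapped 64 of the 209 shared ligase genes on the same strand, mostly predicted genes with Gm symbols and microRNAs, and the ratios of these genes are uncertain to that extent. Other ligases were involved in 4 cases, Fbxw10 with Trim16 and Trim47 (0.97) with Trim65 (1.06) in the authors' deposited table, chosen after their values were seen.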

How the data were processed

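The 6 libraries hold RNA from sucrose pellets of mouse astrocyte lysates; a stranded kit for total RNA was used, per the labels' protocols. The submitters' processing notes name TopHat2, featureCounts and build mm10, with no versions. Each authors' deposited value is a log2 fold change, in the direction optimized over standard, per the file headers. How the counts were scaled, batches combined and detection decided was not given in the sources used here. A scaling that moved all genes alike would shift every ratio, so genes were set against the median.

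The planned tests needed values per library, and the planned description was used instead: medians, quartiles and counts per family. Members and gene lists were chosen with earlier results of these data known. Gene identifiers of all 215 ligases matched GENCODE M21, whose assembly GRCm38 is mm10. The representative transcript was the complete coding one with the best APPRIS rank, then the longest coding sequence. Its translation gave lengths, the RING spacing and hydrophobic stretches (windows of 19 residues, mean Kyte-Doolittle value at least 1.6, or 2). Genes named by rule were all cullins and membrane-anchored RNF genes, the 3 highest and 3 lowest of each other family with at least 6 members, ligases of 1 extraction, and the 2 highest and 2 lowest of each pathway list. Others are marked. Medians and the window search were tested on simulated data. Unmatched columns of per-sample values numbered 0. Python 3.11.15, numpy 2.4.6, pandas 2.3.3, Biopython 1.88 and matplotlib 3.10.9 were used.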

Additional observations from a re-analysis of the deposited data

How the results depend on the processing

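Of 51 alternative values for the medians, differences and counts of the ligase families, 49 moved by less than 0.1 on the log2 scale, or by less than 1.5 times for counts, and 0 changed sign. That tolerance is wider than most differences between a family and the protein-coding genes, so it says little about them: within deciles of coding length the difference was 0.06 in place of 0.04 for all ligases, 0.03 in place of 0.01 for TRIM genes and -0.06 in place of -0.11 for cullins. With ratios centred on the median of all shared genes, 0 ligases were at least 2-fold higher, in place of 159. The share of all shared genes at that cutoff was not counted, so the 0 cannot be read as a trait of the ligases. With the mean in place of the median, KBTBD genes stood at 1.10 in place of 1.21; the cause was not tested. The difference between membrane-anchored and soluble RNF genes, -0.16, ranged from -0.17 (a hydrophobic stretch in place of hand assignment) to -0.15 (means). The hydrophobic stretch picked nearly the same genes, 24 of the 25 membrane-anchored and 4 of the 38 soluble ones, so it is hardly a separate check. The 2 alternatives added after seeing the data left out genes that overlap another on the same strand, or compared within deciles of coding length. Each gave -0.16. No paired analysis was possible because the tables hold 1 ratio per gene and no values per batch, and for the same reason the replicate block and leaving out each batch were not run. Depth and expression level are unknown, so which of the low or high single genes rest on few reads cannot be told.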
